A study of Homo sapiens with 9 samples.

Results

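The genes described here are 10 mitotic kinases and regulators that are known targets of the transcription factor FOXM1, namely CCNB1, CCNB2, PLK1, AURKA, AURKB, BUB1, CDC25B, BIRC5, MELK and MKI67. They were taken by gene name from a deposited table of 33861 genes, in which all 10 were found, and each was set beside FOXM1 itself. All 10 passed the filter on low counts and were among the 20988 genes tested.

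The study asked what activin followed by hepatocyte growth factor (HGF) does to colorectal cancer cells, and total RNA of HCT116, an established human colorectal carcinoma line, was sequenced after removal of ribosomal RNA. The 9 libraries formed 3 groups with 3 libraries each. The libraries labelled NC served as the controls, the Activin libraries came from cells given activin A at 100 ng/mL for 5 days, and the Activin+HGF libraries came from cells given the same activin treatment and then HGF at 20 ng/mL for 5 days. The labels give 1 maintenance medium with serum for all groups, do not say whether it was also used during treatment, and name no genetic change. How long the NC cells were kept in culture is not stated, nor whether activin was still present during the HGF days. No library came from cells given HGF alone. The step from Activin to Activin+HGF therefore cannot be told apart from the longer time in culture or from an end of activin treatment. All libraries came from 1 cell line. Nothing in the labels says that the replicates were separate cultures, so the p-values below measure only the spread between these libraries.

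FOXM1 is a forkhead transcription factor that is made in dividing cells and is switched on by phosphorylation as cells pass from S phase to mitosis. With the MuvB complex and B-MYB it binds the promoters of late cell cycle genes, mainly through a short element called the cell cycle homology region (CHR), which often lies beside CCAAT boxes bound by NF-Y. In resting cells the same promoters are held down by the related DREAM complex. The products of these genes drive entry into mitosis (cyclin B, CDC25B, PLK1, Aurora A), watch over chromosome attachment (BUB1, Aurora B, survivin) or mark dividing cells (Ki-67), and many colorectal tumours make them at high levels.

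Promoter sequence from RefSeq (GRCh38.p14) was found for 8 of the 11 genes, and none for FOXM1, AURKA and BIRC5. The 130 bases before the start site are shown for the 4 genes that hold both a CCAAT box and a CHR form in the same window, and for BUB1 and MELK, which fell with them but hold no CHR form in this window. Each is written 5′ to 3′ on the strand of its gene, at chr5:69167020-69167149 (CCNB1, plus strand), chr15:59105016-59105145 (CCNB2, plus strand), chr16:23678759-23678888 (PLK1, plus strand), chr10:128126424-128126553 (MKI67, minus strand), chr2:110678064-110678193 (BUB1, minus strand) and chr9:36572765-36572894 (MELK, plus strand). Capitals mark CCAAT, which reads ATTGG on the other strand, and the CHR forms TTTGAA and TTTAAA.
CCNB1: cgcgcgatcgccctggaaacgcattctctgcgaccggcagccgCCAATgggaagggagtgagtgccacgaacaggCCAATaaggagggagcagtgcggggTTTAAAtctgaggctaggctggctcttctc
CCNB2: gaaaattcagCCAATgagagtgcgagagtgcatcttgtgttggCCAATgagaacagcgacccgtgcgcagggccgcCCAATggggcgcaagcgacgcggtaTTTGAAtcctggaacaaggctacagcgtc
PLK1: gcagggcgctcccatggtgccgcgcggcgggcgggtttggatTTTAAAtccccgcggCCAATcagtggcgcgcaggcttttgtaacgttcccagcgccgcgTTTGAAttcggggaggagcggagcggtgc
MKI67: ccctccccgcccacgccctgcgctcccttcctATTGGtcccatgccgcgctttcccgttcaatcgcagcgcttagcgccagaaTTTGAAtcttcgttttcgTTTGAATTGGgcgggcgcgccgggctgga
BUB1: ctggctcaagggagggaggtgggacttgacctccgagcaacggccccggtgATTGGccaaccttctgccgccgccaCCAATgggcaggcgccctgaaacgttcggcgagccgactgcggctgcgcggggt
MELK: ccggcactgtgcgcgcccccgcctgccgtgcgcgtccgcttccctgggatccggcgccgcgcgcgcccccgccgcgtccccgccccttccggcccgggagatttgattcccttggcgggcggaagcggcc

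In CCNB2, PLK1 and MKI67 the CHR form TTTGAA began 29 bases before the start site, and in CCNB1 the form TTTAAA began 30 bases before it. The second TTTGAA of MKI67 shares its last A with an ATTGG. The letters were searched on both strands in windows of 300 bases, 250 before and 50 after the start. A gene can have several start sites, and the 8 genes had 12 windows. CCAAT stood in 9 of the 12 (those of AURKB, BUB1, CCNB1, CCNB2, MKI67 and PLK1 and some of CDC25B) and in 34.6% of all 35116 windows. The AURKB windows overlap and hold the same CCAAT, 153 and 129 bases before their starts, so the 12 are not all separate stretches. TTTGAA stood in 3 of the 12 and in 15.2% of all windows, and TTTAAA in 4 of the 12, including a CDC25B window without CCAAT, and in 12.2%. A CCAAT together with either CHR form was found in 4 of the 12, those of CCNB1, CCNB2, MKI67 and PLK1, and in 9.27% of all windows. The forkhead core TAAACA was in no window of the 8 genes and in 12.3% of all windows. These are matches of letters only.

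Each library held 57453977 to 77016167 counts on genes. Levels are given as CPM, the counts scaled to a common library size, here the library size scaled by edgeR's TMM method, with the mean ± SD (n = 3). Of 8 epithelial markers, 6 had at least 1 FPKM (a level scaled to library size and gene length) in every library, among them EPCAM at 77.2 to 133 FPKM, while CDX1 and VIL1 stayed at or below 0.14 and 0.03 FPKM. The summed FPKM of 4 leukocyte markers was 0.57 to 1.33 in NC, 4.08 to 8.5 in Activin and 5.81 to 7.45 in Activin+HGF libraries, nearly all of it CD68. PTPRC, which marks leukocytes, and CD3E, which marks T cells, were at or below 0.02 and 0.05 FPKM. The 4 fibroblast markers summed to 2.27 to 2.51, 4.58 to 6.04 and 2.83 to 3.62 FPKM, nearly all of it COL1A1, with DCN at or below 0.01 FPKM. The part of CD68 and COL1A1 in the results was not tested. The 4 endothelial markers reached at most 0.38 FPKM in sum.

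FOXM1 (ENSG00000111206, chr12:2857680-2877174, minus strand) had 57.9, 68.0 and 56.3 CPM in NC, 992, 1556 and 1287 in Activin and 2357, 1736 and 1761 in Activin+HGF libraries. All treated libraries lay far above all NC libraries, and the Activin+HGF libraries all lay above the Activin libraries. FOXM1 rose 21.1-fold with activin (log2 fold change 4.40, SE 0.23, adjusted p = 5.16e-06) and 32.1-fold in Activin+HGF against NC (log2 5.01, SE 0.24, adjusted p = 3.21e-06) by the quasi-likelihood test of edgeR, with p adjusted over all tested genes after Benjamini and Hochberg. Between Activin+HGF and Activin its log2 difference of 0.61 (SE 0.20) did not pass (edgeR, adjusted p = 0.0706), though it did without Activin replicate 2 (edgeR, adjusted p = 0.02) and with DESeq2 (adjusted p = 0.0408). The FOXM1 row differs from the rows of the 10 genes in how its counts relate to its FPKM values. For every one of the 10 genes, the counts per FPKM followed the library scale, with a highest value 1.35 times the lowest over the 9 libraries. For FOXM1 this number was 805 in each of the 6 treated libraries and 809, 825 and 807 in the NC libraries. Over 9054 genes with enough counts, the median ratio of highest to lowest over the 6 treated libraries was 1.208, and 0 genes had a smaller spread than FOXM1. The counts and the FPKM of FOXM1 therefore cannot both have been derived as those of the 10 genes were. The table does not show which of them differs, and this limit holds for every FOXM1 level, fold change and ratio given here. The part it has in these values was not tested. FOXM1 also overlaps ITFG2 and RHNO1 on the opposite strand, by 2112 and 917 bases, and whether counting used strand is not stated. ITFG2 had at most 663 and RHNO1 at most 2269 counts in any library. FOXM1 had 3543 to 4570 counts in NC and 73113 to 128289 in treated libraries. The part of the overlap in the FOXM1 counts was not tested.

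**Figure D1:**
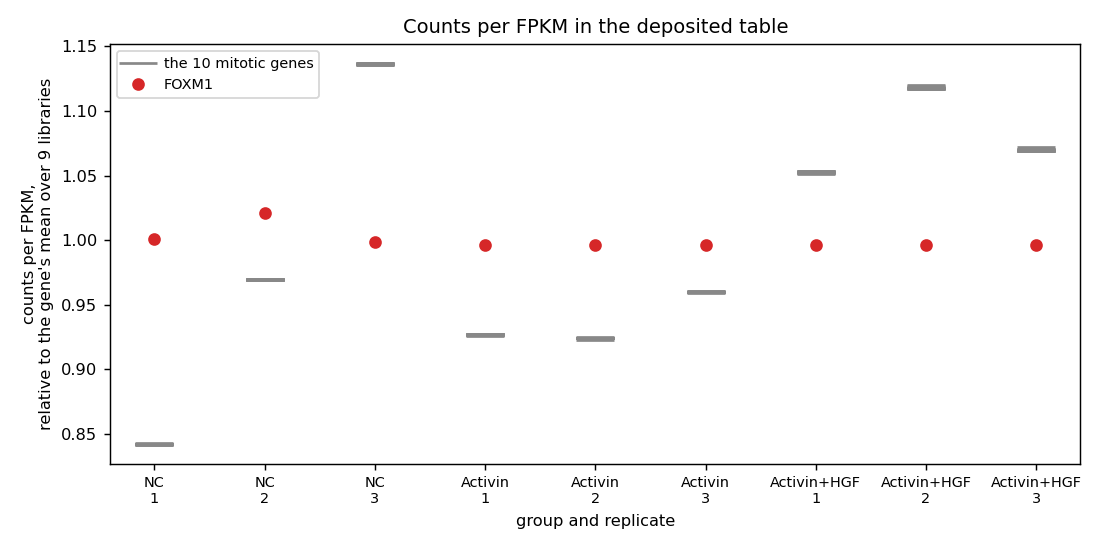
Counts divided by FPKM for FOXM1 (red points) and for each of the 10 mitotic genes (grey dashes, which lie on top of each other), each relative to its own mean over the 9 libraries, by group and replicate. The 10 genes move together with the library by 1.35 times from lowest to highest, whereas FOXM1 stays level over the 6 treated libraries.

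The first comparison is of Activin against NC. With FOXM1 at 21.1 times its NC level, 5 of the 10 genes fell (CCNB1, AURKA, BUB1, MELK and MKI67), 1 rose (CDC25B) and 4 did not pass (CCNB2, PLK1, AURKB and BIRC5). Over all tested genes 8.41% fell and 9.58% rose, 18.0% in all. The median log2 fold change of the 10 genes was -0.54, against 0.02 over all tested genes. In 7 of the 10 all Activin libraries lay below all NC libraries, as in 21.3% of all tested genes, and in 1 they lay above, as in 20.9%.

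The second step is that from Activin to Activin+HGF, where 8 of the 10 genes fell, including CDC25B, and none rose, while CCNB1 and BIRC5 did not pass. All 10 fold changes were below 0. Over all tested genes 5.45% fell and 7.41% rose, 12.9% in all. The median of the 10 was -0.89, against -0.04 over all tested genes, and in 9 of the 10 the groups did not overlap, with Activin+HGF below, as in 15.6% of all tested genes (17.2% lay above).

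Over both steps, that is Activin+HGF against NC, 9 of the 10 genes fell and CDC25B did not pass, where 15.0% of all tested genes fell and 16.4% rose, 31.4% in all. The median was -1.39, against -0.04 over all tested genes, and the same 9 genes had no overlap between groups, with Activin+HGF below, as in 28.1% of all tested genes (25.7% lay above). A decrease of at least 1 on the log2 scale that also passed was seen in 2 of the 10 genes with activin, 4 at the later step and 8 over both, against 4.62%, 4.21% and 10.2% of all tested genes. The 3 comparisons share their libraries in pairs, so they are not independent of each other. In bulk RNA, fewer dividing cells and less of each RNA per cell cannot be told apart.

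**Figure D2:**
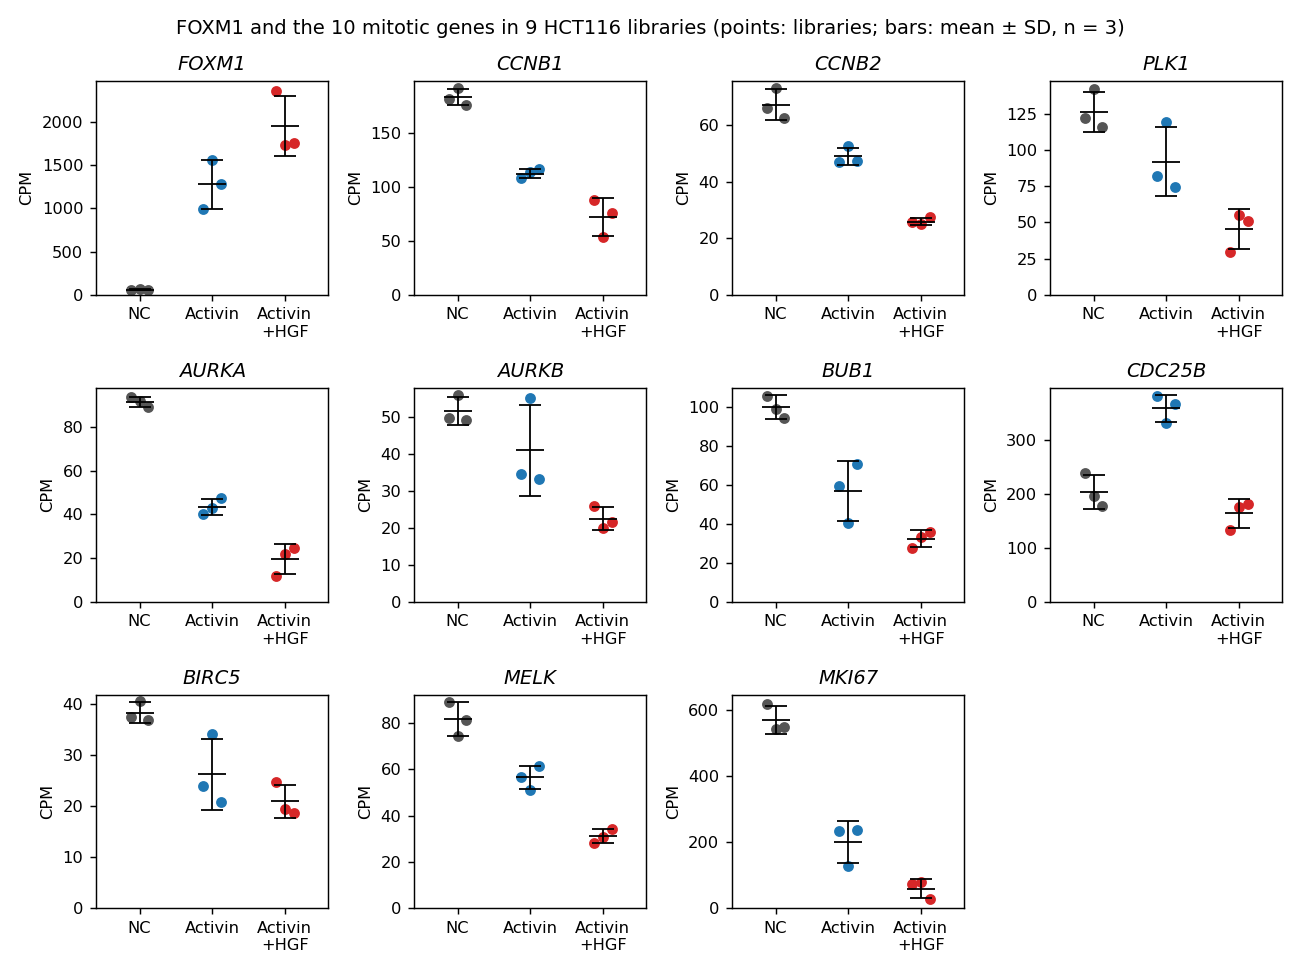
Level (CPM, linear axis from 0) of FOXM1 and each of the 10 mitotic genes by group, with a point for each library and bars for the mean ± SD (n = 3). FOXM1 climbs from 60.7 to 1951 CPM on average while 9 of the 10 genes lie lower in Activin+HGF than in NC libraries with no overlap, and CDC25B peaks in the Activin libraries.

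The B-type cyclins are the partners of CDK1 that carry cells into mitosis. CCNB1 (chr5:69167135-69178245), which encodes cyclin B1, had 181, 191 and 176 CPM in NC, 108, 114 and 116 in Activin and 88.0, 53.5 and 75.6 in Activin+HGF libraries. Its groups were ordered with no overlap at either step. It fell with activin (log2 -0.70, SE 0.19, adjusted p = 0.027) and over both steps 2.53-fold (log2 -1.34, SE 0.19, adjusted p = 0.000684), and the second step just missed the threshold (log2 -0.64, SE 0.19, adjusted p = 0.0501, edgeR throughout). The activin decrease did not pass without NC replicate 1, 2 or 3 or Activin replicate 1 or 3 (adjusted p = 0.0733 to 0.113, edgeR). The later step passed in 6 of 14 other settings. In edgeR these were without Activin replicate 2 (adjusted p = 0.0489) or Activin+HGF replicate 1 (adjusted p = 0.0308) and with library totals (adjusted p = 0.00704). The others were DESeq2 (adjusted p = 0.0185) and limma on log2(FPKM + 0.1) and log2(FPKM + 1) (adjusted p = 0.00424 and 0.00397). CCNB2 (chr15:59105126-59125045), for cyclin B2, had 66.2, 73.2 and 62.5 CPM in NC, 47.1, 52.6 and 47.4 in Activin and 25.6, 24.9 and 27.4 in Activin+HGF libraries. Its groups did not overlap either. CCNB2 did not pass with activin in edgeR (log2 -0.46, SE 0.15, adjusted p = 0.0608, or 0.0267 without Activin replicate 2), though it did with DESeq2 (adjusted p = 0.0186). It fell 1.89-fold from Activin to Activin+HGF (log2 -0.92, SE 0.15, adjusted p = 0.00709, edgeR). Over both steps it fell 2.59-fold (log2 -1.38, SE 0.15, edgeR adjusted p = 0.000183).

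CDC25B (chr20:3786772-3806121) encodes a phosphatase that removes the inhibitory phosphates from CDK1 at the start of mitosis. It had 238, 196 and 177 CPM in NC, 381, 331 and 366 in Activin and 133, 176 and 182 in Activin+HGF libraries. Every Activin library stood above every other library, while the NC and Activin+HGF libraries overlapped. CDC25B rose 1.76-fold with activin (log2 0.82, SE 0.18, adjusted p = 0.0111) and fell 2.20-fold from there (log2 -1.14, SE 0.18, adjusted p = 0.00664), which left it at a log2 difference of -0.32 (SE 0.18, adjusted p = 0.207, edgeR) from NC. Its rise did not pass without NC replicate 3 (log2 0.72, edgeR adjusted p = 0.0679). Set against the mean log2 CPM of the other 9 genes of its library, CDC25B was 0.85 to 1.19 higher in NC, 2.40 to 2.65 in Activin and 2.09 to 2.50 in Activin+HGF libraries. Relative to the other 9 it thus stayed above its NC range in all 6 treated libraries. This last measure was set up after the values of CDC25B were seen and carries no test.

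Among the kinases of mitotic entry and the spindle, PLK1 (chr16:23677656-23690366), the Polo-like kinase that acts from centrosome maturation to cytokinesis and phosphorylates FOXM1, had 122, 142 and 116 CPM in NC, 81.9, 119 and 74.6 in Activin and 29.4, 55.4 and 50.8 in Activin+HGF libraries. The Activin replicate 2 reached into the NC range, and all Activin+HGF libraries lay below the others. PLK1 did not pass with activin (log2 -0.46, SE 0.26, adjusted p = 0.262), fell 2.03-fold at the second step (log2 -1.02, SE 0.26, adjusted p = 0.0311) and 2.80-fold over both (log2 -1.48, SE 0.26, adjusted p = 0.00229, edgeR). The middle value lost its call without Activin replicate 1 or 2 or Activin+HGF replicate 1 or 3 (adjusted p = 0.0547 to 0.0632, edgeR). AURKA (chr20:56369389-56392296) encodes Aurora A, which activates PLK1 and builds the spindle poles. Its levels were 93.8, 91.7 and 89.1 CPM in NC, 40.0, 42.7 and 47.5 in Activin and 11.6, 22.0 and 24.7 in Activin+HGF libraries. These groups were well apart, and the NC libraries had a coefficient of variation of 2.53%, the smallest of the 10 genes in any group. AURKA fell 2.11-fold with activin (log2 -1.08, SE 0.25, adjusted p = 0.0144) and again 2.24-fold at the second step (log2 -1.16, SE 0.25, adjusted p = 0.0172), 4.72-fold in all (log2 -2.24, SE 0.26, adjusted p = 0.000221, edgeR). Its activin decrease did not pass without NC replicate 1 or 2 or Activin replicate 1 (adjusted p = 0.0547 to 0.0632, edgeR).

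AURKB and BIRC5 encode Aurora B and survivin, which sit together in the chromosomal passenger complex. AURKB (chr17:8204733-8210600) had 49.7, 56.0 and 49.2 CPM in NC, 34.6, 55.2 and 33.3 in Activin and 25.9, 19.8 and 21.6 in Activin+HGF libraries. BIRC5 (chr17:78214186-78225636) had 37.3, 40.6 and 36.7 CPM in NC, 24.0, 34.0 and 20.7 in Activin and 24.6, 19.5 and 18.6 in Activin+HGF libraries. Activin replicate 2 stood apart from the other Activin libraries in both genes, within the NC range for AURKB and just under it for BIRC5. Neither passed with activin (AURKB log2 -0.33, SE 0.22, adjusted p = 0.346, and BIRC5 log2 -0.54, SE 0.21, adjusted p = 0.11, edgeR). Without that library both passed, with adjusted p = 0.0275 for AURKB and 0.0148 for BIRC5 (edgeR). In the step after activin AURKB fell 1.83-fold (log2 -0.87, SE 0.22, adjusted p = 0.0308), and BIRC5, whose groups overlapped, had a log2 difference of -0.33 (SE 0.21, adjusted p = 0.339, edgeR). Over both steps AURKB fell 2.30-fold (log2 -1.20, SE 0.22, adjusted p = 0.00279) and BIRC5 1.83-fold (log2 -0.87, SE 0.22, adjusted p = 0.0121, edgeR), the smallest of the 9 decreases. The second decrease of AURKB did not pass without Activin+HGF replicate 2 or 3 (adjusted p = 0.0935 and 0.0779, edgeR).

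BUB1 (chr2:110637528-110678063), a kinase of the spindle assembly checkpoint, had 106, 99.3 and 94.5 CPM in NC, 59.3, 40.6 and 70.9 in Activin and 27.5, 33.5 and 36.0 in Activin+HGF libraries. MELK (chr9:36572862-36677683), a kinase of dividing and progenitor cells, had 89.2, 74.6 and 81.5 CPM in NC, 56.8, 51.1 and 61.5 in Activin and 28.4, 30.7 and 34.2 in Activin+HGF libraries. In both genes the 3 groups were in the same order with no overlap. BUB1 fell 1.76-fold at each step (log2 -0.81, SE 0.21, adjusted p = 0.025 with activin, and adjusted p = 0.0342 with a like SE after it) and 3.09-fold over both (log2 -1.63, SE 0.22, adjusted p = 0.000496, edgeR). MELK fell 1.45-fold with activin (log2 -0.53, SE 0.16, adjusted p = 0.043), 1.82-fold after it (log2 -0.86, SE 0.16, adjusted p = 0.0108) and 2.63-fold in all (adjusted p = 0.000229, edgeR). The activin decrease of MELK is the least stable call, since it passed in 3 of 14 other settings, and BUB1 passed in 7 of 14 at each step. Leaving out any 1 NC or Activin library lost the activin call of MELK (adjusted p = 0.0527 to 0.227, edgeR). BUB1 lost its call with activin without NC replicate 1, 2 or 3 or Activin replicate 1 (adjusted p = 0.0652 to 0.123, edgeR). Its later decrease lost the call without Activin replicate 1 or 3 or any 1 Activin+HGF library (adjusted p = 0.0571 to 0.093, edgeR).

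MKI67 (chr10:128096659-128126423) encodes Ki-67, the nuclear protein used to mark dividing cells. It had 616, 542 and 548 CPM in NC, 235, 128 and 238 in Activin and 72.9, 78.5 and 28.6 in Activin+HGF libraries. Its groups were far apart, although the Activin and Activin+HGF libraries varied by 31.3% and 45.5% of their means, against 7.20% in NC. MKI67 had the largest decrease of the 10 genes in each of the 3 comparisons, 2.84-fold with activin (log2 -1.50, SE 0.36, adjusted p = 0.0157), 3.34-fold at the second step (log2 -1.74, SE 0.36, adjusted p = 0.0148) and 9.47-fold over both (log2 -3.24, SE 0.38, adjusted p = 0.000233, edgeR). The activin decrease did not pass without NC replicate 1 or 2 (adjusted p = 0.0637 and 0.0501), nor the second without Activin replicate 1 (adjusted p = 0.0556, edgeR).

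**Figure D3:**
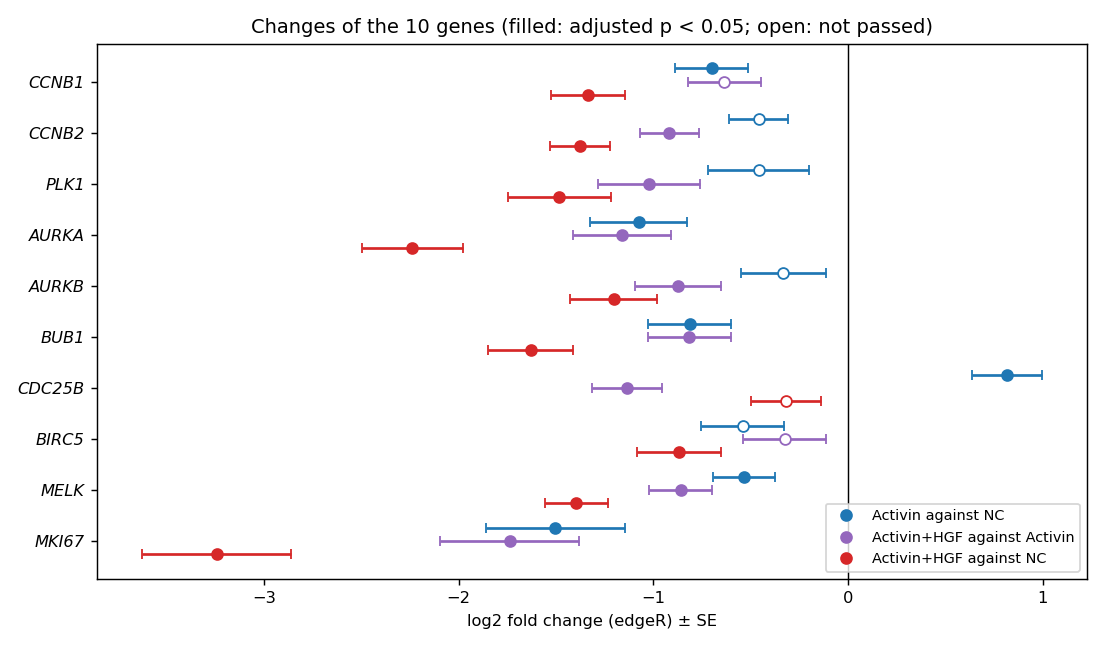
Log2 fold change ± SE (edgeR) of each of the 10 genes in the 3 comparisons, filled where the adjusted p was under 0.05 and open where it was not. CDC25B with activin (0.82) is the single point right of 0, and MKI67 over both steps (-3.24) is the farthest left.

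Each of the 9 decreases in Activin+HGF against NC passed in all 14 other settings tried, with adjusted p of at most 0.046, and no fold change of the 10 genes or FOXM1 changed sign in any setting. The counts at the single steps were less stable. For activin against NC, 1 gene passed without NC replicate 1, 1 without NC replicate 2, 2 without NC replicate 3 and 2 without Activin replicate 1, in place of 6. From Activin to Activin+HGF, 5 genes passed without Activin replicate 1 and 5 without Activin+HGF replicate 3, in place of 8. With library totals in place of TMM, the median log2 fold change of all genes moved to 0.10 with activin, -0.38 at the second step and -0.30 over both. On that scale 10 of the 10 genes passed as lower at the second step, and of all genes that passed there 22.3% were higher, against 57.6% with TMM. The share of higher genes became 63.5% with activin and 36.3% over both steps, against 53.2% and 52.3%.

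The libraries of a group did not rank the 10 genes alike. NC replicate 3 was the lowest NC library for 8 of the 10 genes, all but MELK and MKI67. Activin replicate 2 was the lowest Activin library for BUB1, CDC25B, MELK and MKI67 and the highest for CCNB2, PLK1, AURKB and BIRC5. Activin+HGF replicate 1 was the lowest of its group for PLK1, AURKA, BUB1, CDC25B and MELK and the highest for CCNB1, AURKB and BIRC5.

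Levels per length, in FPKM, allow the genes to be ordered within a group. In NC libraries CCNB1 led with 67.4 ± 2.25 FPKM (SD, n = 3), followed by CDC25B (42.5 ± 7.42) and MKI67 (39.8 ± 3.78), whose libraries overlapped, and by AURKA (28.0 ± 1.19). PLK1, MELK, CCNB2 and AURKB came next at 23.8 to 20.6 FPKM, each overlapping its neighbour, then BUB1 at 14.3 ± 1.11 and BIRC5 at 8.97 ± 0.356. In Activin libraries CDC25B came first with 79.5 ± 12.2 FPKM, above CCNB1 with 43.9 ± 3.69, and the 5 genes from PLK1 to MKI67 at 18.1 to 15.1 FPKM each overlapped the next in order, as MKI67 did AURKA. In Activin+HGF libraries CDC25B (28.0 ± 6.78) and CCNB1 (21.5 ± 3.76) overlapped at the top, all others were below them, and MKI67 had become the last at 3.39 ± 1.56 FPKM.

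FOXM1 averaged 5.18 FPKM in NC, 111 in Activin and 149 in Activin+HGF libraries. In NC libraries the mean of every one of the 10 genes lay above that of FOXM1, from 1.73-fold for BIRC5 to 13.0-fold for CCNB1. In Activin libraries FOXM1 lay above all 10, from 1.39-fold over CDC25B to 17.2-fold over BIRC5, and in Activin+HGF libraries from 5.34-fold over CDC25B to 44.0-fold over MKI67. As the log2 ratio of the gene to FOXM1 in CPM, the difference with activin ranged from -3.55 for CDC25B to -5.94 for MKI67. After activin it ranged from -0.92 for BIRC5 to -2.44 for MKI67, and over both steps from -5.32 for CDC25B to -8.37 for MKI67. In each comparison 10 of 10 ratios were lower with no overlap, which was so for 92.1% of all other tested genes with activin, 32.3% at the second step and 92.4% over both. Each of these 30 two-sided exact permutation tests gave p = 0.1, also after adjustment over the 30, which is the smallest value that 3 libraries against 3 allow, so none could pass. FOXM1 fell into separate ranges by group, so no correlation with it over the 9 libraries is given, and 3 libraries within a group are too few for one.

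**Figure D4:**
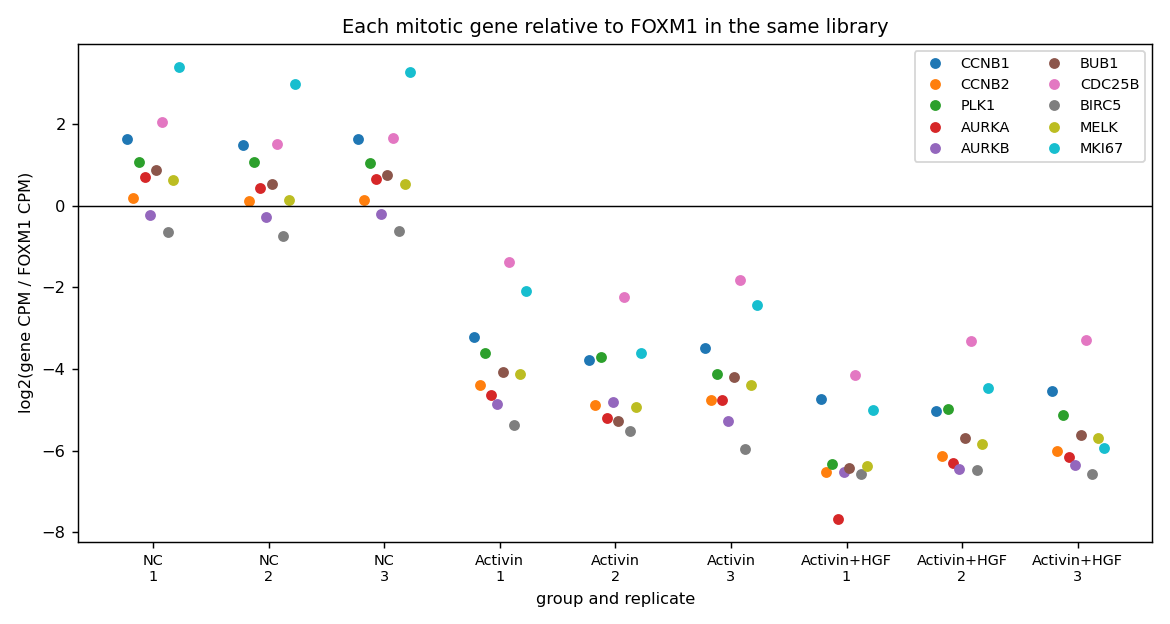
Log2 ratio of each of the 10 genes to FOXM1 in the same library, in CPM, by group and replicate, with a colour for each gene. In NC libraries the ratios of 8 genes lie above 0 and those of AURKB and BIRC5 below it, and in all 6 treated libraries every ratio is below 0.

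Genes that work with the 10, or share their control, were taken as 4 lists with 58 genes in all, each of which passed the filter on low counts. In activin against NC 14 of the 58 fell and none rose, though 4 were higher at an unadjusted p under 0.05 (edgeR). Other settings called some higher there, such as 1 with DESeq2 and 2 with limma on log2(FPKM + 1). At the second step 19 fell and 1, E2F5, rose, where DESeq2 called 3 higher and library totals 0. Over both steps 36 fell and 2 rose. The medians were -0.44, -0.47 and -0.99, and the shares over all tested genes are those given above for the 10. The step counts moved with single libraries. With activin, 7 passed without NC replicate 1, 7 without NC replicate 2, 9 without NC replicate 3 and 9 without Activin replicate 1. At the second step, in place of 20, 10 passed without Activin replicate 1, 32 without Activin replicate 2, 10 without Activin replicate 3, 11 without Activin+HGF replicate 1, 11 without Activin+HGF replicate 2 and 10 without Activin+HGF replicate 3.

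Of 14 other mitotic kinases, 3 fell with activin, 5 at the second step and 7 over both, with medians of -0.29, -0.46 and -0.72. The shares of all tested genes that fell were 8.41%, 5.45% and 15.0%. VRK1, a chromatin kinase, fell by 1.36 on the log2 scale with activin (SE 0.27, adjusted p = 0.00643), and BUB1B, the checkpoint protein BubR1, fell by 1.28 (SE 0.27, adjusted p = 0.00964, edgeR). From Activin to Activin+HGF PLK4, which starts centriole duplication, fell by 1.09 (SE 0.24, adjusted p = 0.0182) and PKMYT1, which inhibits CDK1, fell by 1.23 (SE 0.29, adjusted p = 0.0224, edgeR). All Activin libraries of PKMYT1 lay above all its NC libraries, although it did not pass with activin (log2 0.88, SE 0.28, adjusted p = 0.0563, edgeR). Nor did PKMYT1 pass over both steps (log2 -0.35, SE 0.28, adjusted p = 0.376, edgeR). Over both steps PLK4 fell 3.65-fold and BUB1B 3.68-fold, with edgeR adjusted p of 0.000424 and 0.000849. NEK6, a kinase of the spindle, rose 1.67-fold over both steps (log2 0.74, SE 0.20, adjusted p = 0.0181, edgeR), the 1 kinase of the list that passed as higher. It did not pass with library totals (adjusted p = 0.0695), nor without NC replicate 1, 2 or 3 or Activin+HGF replicate 2 (adjusted p = 0.0527 to 0.0725, edgeR). The PLK4 decrease of the second step did not pass without Activin replicate 1 or 3 or Activin+HGF replicate 1 or 2 (adjusted p = 0.051 to 0.0639, edgeR). CDK1, the partner of the B-type cyclins, did not pass in any comparison (log2 0.34, -0.20 and 0.13, edgeR adjusted p = 0.334, 0.574 and 0.681). It was singled out after its values were seen.

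Among 11 partner proteins of the 10 genes, 2 fell with activin, 4 at the second step and 8 over both, against 8.41%, 5.45% and 15.0% of all tested genes. TPX2, which activates Aurora A, had 285, 314 and 289 CPM in NC, 145, 139.9 and 157 in Activin and 133, 110.4 and 106 in Activin+HGF libraries. It was lower in every treated library, by 1.00 on the log2 scale with activin (SE 0.15, adjusted p = 0.00173) and 2.54-fold over both steps (adjusted p = 0.00021, edgeR). INCENP, the scaffold of the chromosomal passenger complex, fell 1.64-fold with activin (adjusted p = 0.0445) and CDCA8, its borealin subunit, 2.24-fold over both steps (adjusted p = 0.00174, edgeR). From Activin to Activin+HGF CCNF, cyclin F, fell 2.42-fold (adjusted p = 0.0195) and CDC25A, a phosphatase of the same family as CDC25B, fell 1.94-fold (adjusted p = 0.0263, edgeR). Unlike CDC25B, CDC25A had no activin increase that passed (log2 -0.03, SE 0.23, adjusted p = 0.95, edgeR), although the difference between these genes was not tested. INCENP did not pass without NC replicate 1, 2 or 3 or Activin replicate 1 or 3 (adjusted p = 0.0884 to 0.158), nor CDC25A without any 1 Activin+HGF library (adjusted p = 0.0559 to 0.0708, edgeR).

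The list of 22 other G2/M target genes of FOXM1 had 8 lower with activin, 8 at the second step and 18 over both, none higher (1, 2 and 1 were higher at an unadjusted p under 0.05 in edgeR), with medians of -0.62, -0.74 and -1.40. Over all tested genes 8.41%, 5.45% and 15.0% fell. The higher ones were UBE2C with activin (log2 0.40, adjusted p = 0.144, edgeR) and CKS1B and CKS2 at the second step. Their log2 values there were 0.59 and 0.995 (adjusted p = 0.0572 and 0.0604, edgeR). In CKS1B and CKS2 all Activin+HGF libraries lay above all Activin libraries. Over both steps CKS2 had a log2 difference of 0.80 (adjusted p = 0.0736, edgeR). KIF20A, a kinesin of cytokinesis, fell 2.29-fold with activin (adjusted p = 0.000998) and PRC1, which bundles the central spindle, 2.30-fold (adjusted p = 0.00112, edgeR). From Activin to Activin+HGF GTSE1, a microtubule-binding protein of G2 phase, fell 2.51-fold (adjusted p = 0.0032) and HMMR, a spindle-associated hyaluronan receptor, 4.38-fold (adjusted p = 0.00589, edgeR). HMMR had 45.5, 40.2 and 42.8 CPM in NC, 30.0, 24.3 and 42.7 in Activin and 4.06, 7.71 and 10.4 in Activin+HGF libraries, so its groups overlapped with activin and parted at the second step. Over both steps GTSE1 fell 4.57-fold and KIF20A 3.14-fold, with edgeR adjusted p of 3.2e-05 and 0.000101.

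Of 11 genes of the MuvB and DREAM complexes, 1 fell with activin, 2 fell and 1 rose at the second step, and 3 fell and 1 rose over both. Over all tested genes 8.41%, 5.45% and 15.0% fell and 9.58%, 7.41% and 16.4% rose in the 3 comparisons. The 1 gene lower with activin and the 1 higher at the second step are near these shares. TFDP1, the partner of E2F factors, fell 2.04-fold with activin (adjusted p = 0.0107, edgeR). MYBL2, which encodes B-MYB, fell 2.64-fold at the second step (adjusted p = 0.01) and 3.75-fold over both (adjusted p = 0.000563), and RBL1, the pocket protein p107, 2.67-fold (adjusted p = 0.0181) and 4.93-fold (adjusted p = 0.000591, edgeR). E2F5, a repressor E2F, rose 1.83-fold at the second step (adjusted p = 0.0179) and 1.92-fold over both (adjusted p = 0.00463, edgeR). The E2F5 increase over both steps passed in 14 of 14 other settings. That of the second step passed in 8 of 14, and not with library totals (adjusted p = 0.0962) nor without Activin replicate 1 or 3 (adjusted p = 0.0608 and 0.093, edgeR). RBL1 did not pass there without Activin replicate 1 or 3 or Activin+HGF replicate 3 (adjusted p = 0.0512 to 0.0641, edgeR). MYBL2 had 80.7, 158 and 84.9 CPM in the Activin libraries, so that Activin replicate 2 lay within the NC range (142 to 171 CPM), as it did for PLK1 and AURKB.

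**Figure D5:**
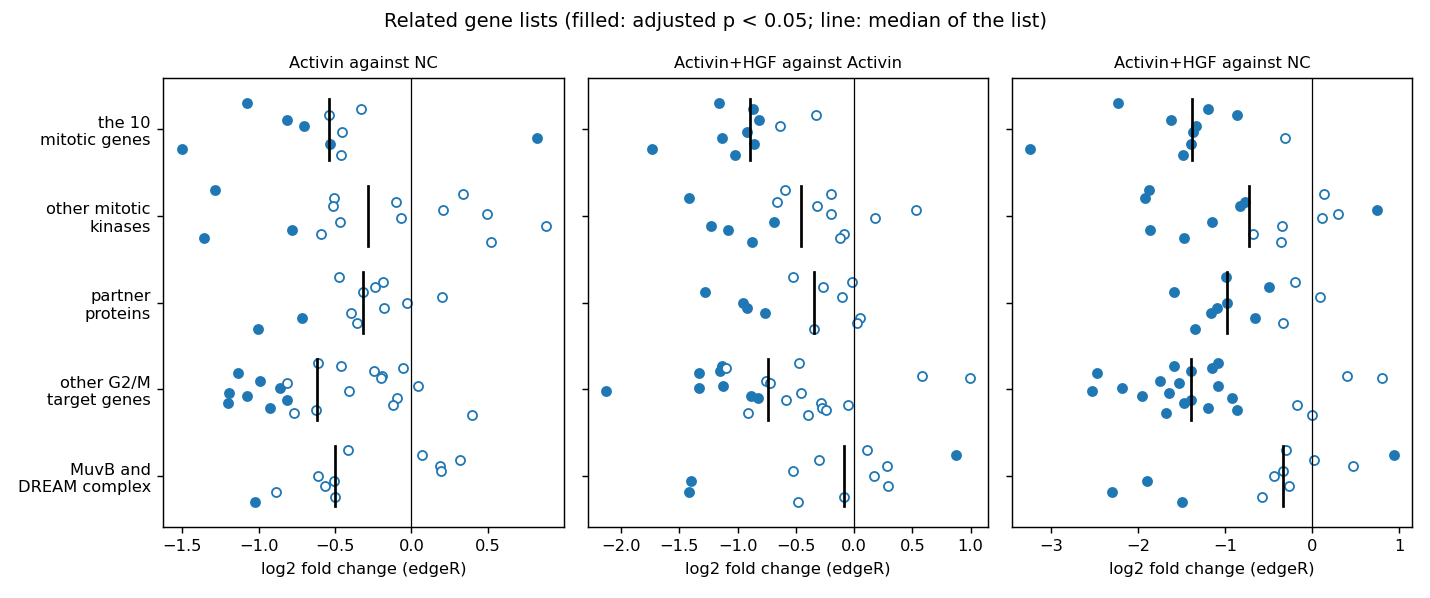
Log2 fold changes (edgeR) of the 10 genes and of the 4 related lists in the 3 comparisons, a point for each gene, filled where the adjusted p was under 0.05, with a line at the median of the list. The median of every list lies left of 0 in each comparison, from -0.08 for the MuvB and DREAM genes at the second step to -1.40 for the other G2/M targets over both steps. The median over all tested genes was 0.02 with activin, -0.04 at the second step, near the -0.08, and -0.035 over both.

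Profiles centred on the gene mean were compared over the 9 libraries for 11935 candidate genes. The candidates left out the 10 genes and all genes of the related lists, so other mitotic genes of those lists were not ranked. Among the candidates, STAT6, MAP4K4, SETD1B, FANCA and TRIM14 lay closest to the mean profile of the 10 genes, at a root-mean-square distance of 0.0908 to 0.141 on the log2 scale. Of the 10 genes themselves CCNB2 was the closest at 0.101 and MKI67 the farthest at 0.88, and FOXM1 lay at 2.79.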

How the data were processed

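RNA of 9 HCT116 libraries was compared in 3 groups, taken from the treatment labels. For each gene and library, the authors deposited a count and an FPKM value, the latter scaled by them to library size and gene length. Counts were used as raw read counts, although those of FOXM1 per FPKM did not follow the library scale. The submitters' processing notes name cutadapt 1.9, HISAT2 2.0.4 and StringTie 1.3.4d, in no stated role. The genome build is not given in the sources used here, and 60.09% of 32930 gene intervals were the same as in GENCODE 29 (GRCh38), with 99.86% overlapping on the same strand, so coordinates are those of the file. Depth was 57453977 to 77016167 counts per library, and the 3 libraries per group limit the precision.

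All tests were fitted on the whole table with edgeR 4.0.16 in R 4.3.3 (filterByExpr, TMM, glmQLFit and glmQLFTest, a mean for each group, no block), and a gene passed at a Benjamini-Hochberg adjusted p under 0.05. Standard errors are approximate, the fold change divided by the square root of F. Alternatives were other scalings, no filter, DESeq2 1.42.0, limma 3.58.1 on log2(FPKM + 0.1) and log2(FPKM + 1), a replicate block, only the groups compared, stricter thresholds and each library left out. Ratios to FOXM1 used a two-sided exact permutation test. The fits were tested on simulated data.

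The 10 genes, the lists and the tests were chosen with earlier results of these data known. Named were the 10 genes and FOXM1, the 2 genes with the smallest p among those that passed in each list and comparison, those that passed against the direction of their list, and the 5 nearest profiles among genes outside the 10 and the lists with a mean FPKM of at least 1. CDK1, RHNO1, TPX2, HMMR and MYBL2 per library, and CKS1B, CKS2 and UBE2C, were added after their values were seen. Replicate numbers come from the labels but did not pair the libraries, since libraries with the same number had correlations of -0.0606 to 0.0882 in their deviations from the group means and others -0.0825 to 0.108.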

Additional observations from a re-analysis of the deposited data

How the results depend on the processing

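Of 462 refitted fold changes of the 10 genes and FOXM1, 399 kept their direction and their side of the threshold, 47 lost the call, 16 gained it and 0 changed sign, and the cause of these changes was not tested. The number of the 10 genes that passed with activin (6) was 2 with an added log2 fold change of at least 1, 0 at an adjusted p under 0.01 (edgeR; 8 had an unadjusted p under 0.05, and at the same 0.01 threshold DESeq2 gave 5 and limma on FPKM gave 0), and 1 to 8 with a library left out. At the second step (8) it was 4 with only the groups compared, 4 with the fold threshold, 2 at 0.01 and 5 to 8 with a library left out. Over both steps it was 9 throughout the left-out libraries. Of the 58 related genes, 14 passed with activin, against 8 with the fold threshold, 6 at 0.01 and 7 to 19 with a library left out. At the second step 20 passed, against 32 with library totals, 31 with limma on log2(FPKM + 0.1), 5 with only the groups compared, 12 with the fold threshold, 2 at 0.01 and 10 to 32 with a library left out, and over both 38, against 31 to 37. With replicate numbers as a block, 5, 6 and 9 of the 10 and 14, 16 and 38 of the 58 passed in the 3 comparisons, although the numbers do not pair the libraries. The 10 ratios to FOXM1 were lower with no overlap in CPM, in FPKM and with each library left out, which says little of these genes, since 92.1%, 32.3% and 92.4% of all other genes were also lower in the 3 comparisons.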

Other observations

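RHNO1, a DNA damage response gene that shares 917 bases with FOXM1 on the opposite strand, had 22.9, 25.0 and 23.4 CPM in NC, 21.9, 24.3 and 30.2 in Activin and 4.65, 10.7 and 11.7 in Activin+HGF libraries. It was lower at the second step (log2 -1.50, SE 0.31, edgeR adjusted p = 0.0146) and over both steps (log2 -1.40, SE 0.31, edgeR adjusted p = 0.00679), but not with activin (log2 0.10, SE 0.30, edgeR adjusted p = 0.868). Its Activin+HGF libraries were the only ones below 21.9 CPM. It was looked at after its values were seen.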
